A study of Homo sapiens with 36 samples.

Results

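A group of S100 genes of chromosome band 1q21 was followed through cultured human neural stem cells (hNSC) in which MEIS1 or MEIS2 had been raised or disrupted. The group comprised S100A1, S100A2, S100A3, S100A4, S100A5, S100A6, S100A10, S100A11, S100A13 and S100A16, 10 of the 28516 gene symbols in the count table, and all 10 had enough reads to be tested. They were chosen by name, with it known that the neighbours S100A3 and S100A4 were higher after MEIS1 activation, so the values of MEIS1-OE against ctrl-OE chose the group and are given below as a description without a test.

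The hNSC were bought from Gibco and infected with lentivirus, and cells were harvested 48 h later. For MEIS1-OE and for MEIS2-OE, CRISPR-activation (a Cas9 that does not cut, fused to VP64, with a further activator complex bound by the guide RNA) was aimed at the respective promoter, and ctrl-OE carried the same machinery with a guide that has no target. In MEIS1-KO and MEIS2-KO, cutting Cas9 was aimed at the gene with a mixture of 2 guides, and ctrl-KO carried Cas9 with a non-targeting guide. Each of the 6 conditions had 6 libraries. Activation used separate viruses for guide, Cas9 and activator complex whereas knockout used a single vector, so the controls differed in their viruses as well as in the Cas9. The knockouts were infected cultures and not clones, and part of the targeted mRNA remained: MEIS1 measured 25.7 ± 1.66 counts per 1e6 reads (CPM, mean ± SD, n = 6) in ctrl-KO and 8.96 ± 1.74 in MEIS1-KO, and MEIS2 measured 25.8 ± 1.58 and 12.1 ± 0.936 in ctrl-KO and MEIS2-KO. After activation MEIS1 went from 17.8 ± 1.10 to 310.2 ± 14.3 CPM and MEIS2 from 22.6 ± 1.23 to 824 ± 20.0 CPM.

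S100 proteins are small calcium sensors of the EF-hand family. They form dimers, open a hydrophobic cleft when calcium binds, and dock there onto partners such as annexins, non-muscle myosin, calcyclin-binding protein or p53, and some are released from cells and act through the receptor AGER. In the nervous system the family is best known for S100B of astrocytes, a gene on another chromosome. The members on 1q21 are better known from muscle, epithelia, hair and motile cells.

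Libraries held between 15429985 and 22940493 reads on genes, with a median of 20324720. CPM were scaled by the totals times their TMM factors, and on that scale 1 read was worth between 0.0404 and 0.0670 CPM. The 7 neural stem markers had a summed level of 2817 to 5852 CPM over all libraries, led by VIM and NES, with HES5 at 0 in at least 1 library of MEIS1-OE and of MEIS2-OE. The neuron list lay at 192 to 421 CPM, mostly from TUBB3 and ELAVL3, and the pluripotency list at 248 to 535 CPM, nearly all from LIN28A, while RBFOX3, CDH1, KRT5, PTPRC and NANOG had at most 3 reads in each library. The summed fibroblast list lay at 347 to 546 CPM in ctrl-OE and at 713 to 927 CPM in ctrl-KO, the epithelial list at 6.80 to 9.06 and 1.05 to 1.97 CPM, the immune list at 7.65 to 11.1 and 2.89 to 3.26 CPM, the astrocyte list at 8.46 to 14.7 and 28.1 to 32.6 CPM, the oligodendrocyte list at 27.8 to 30.2 and 32.8 to 39.4 CPM, and the pluripotency list at 284 to 321 and 441 to 535 CPM, all lists with all of their genes in the table. In bulk RNA a lower level can mean fewer cells of a type or less RNA per cell, and these cannot be told apart. The labels do not say whether the libraries of a condition came from separate cultures, and p-values measure the spread between these libraries, which may be technical.

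All members but S100A1 lie on the minus strand of chromosome 1 (GRCh37, the build to which the reads were aligned, with GENCODE gene models). S100A6, S100A5, S100A4, S100A3 and S100A2 follow each other from 153507075 to 153540366, S100A16, S100A13 and S100A1 lie from 153579362 to 153604515, and S100A10 and S100A11 lie apart, from 151955391 to 152020383. S100A14, which is not in the group, lies between S100A16 and S100A13. S100A3 (153519805 to 153521734) sits within an intron of a long S100A4 transcript that starts at 153522612 and runs down to 153516097, with 0 shared exonic bases, and the main start sites of both genes are 3.45 kb apart. The start of S100A10 is 1555.4 kb from that of S100A3. The main transcripts of S100A1 and S100A13 start beside each other and run apart on opposite strands, and over all annotated transcripts the genes share 235 exonic bases, 7.76% of the exonic bases of S100A1 and 10.6% of those of S100A13. The libraries were stranded, but the strand setting of the counting is not given in the sources used here, so reads in that overlap could not be assigned with certainty. S100A13 also shares 536 exonic bases (24.2%) with a long non-coding RNA on its own strand. S100A11 has 10 pseudogenes in RefSeq, so its counts are uncertain where reads match those copies.

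In the comparison that chose the group, S100A3, S100A4 and S100A10 were higher in every MEIS1-OE library than in any ctrl-OE library. The promoters of these 3 members are shown, with that of S100A16, the only member with a MEIS core hexamer. Each runs 5′ to 3′ along the gene from 250 bases before to 50 bases after the start of the main transcript (GRCh37), and capitals mark TATAAA or the hexamer TGACAG, which reads CTGTCA where it lies on the opposite strand.
S100A3 (chr1:153521685-153521984, minus strand): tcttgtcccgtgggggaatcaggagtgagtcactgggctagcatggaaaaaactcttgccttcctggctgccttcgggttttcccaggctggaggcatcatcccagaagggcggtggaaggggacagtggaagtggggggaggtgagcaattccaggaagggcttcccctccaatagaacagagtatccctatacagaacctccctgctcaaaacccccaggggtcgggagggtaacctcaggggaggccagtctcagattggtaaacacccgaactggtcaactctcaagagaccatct
S100A4 (chr1:153518233-153518532, minus strand): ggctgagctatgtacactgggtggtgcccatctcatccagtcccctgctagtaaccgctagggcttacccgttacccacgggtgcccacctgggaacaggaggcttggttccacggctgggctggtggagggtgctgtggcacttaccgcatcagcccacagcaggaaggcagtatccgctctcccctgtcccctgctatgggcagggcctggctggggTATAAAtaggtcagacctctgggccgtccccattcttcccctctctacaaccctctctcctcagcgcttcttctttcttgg
S100A10 (chr1:151966286-151966585, minus strand): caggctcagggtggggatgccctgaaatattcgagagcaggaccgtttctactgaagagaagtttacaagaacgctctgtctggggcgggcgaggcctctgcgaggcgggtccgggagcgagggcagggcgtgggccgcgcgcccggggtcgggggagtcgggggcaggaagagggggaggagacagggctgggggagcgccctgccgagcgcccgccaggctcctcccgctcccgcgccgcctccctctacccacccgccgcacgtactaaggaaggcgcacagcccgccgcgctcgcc
S100A16 (chr1:153585564-153585863, minus strand): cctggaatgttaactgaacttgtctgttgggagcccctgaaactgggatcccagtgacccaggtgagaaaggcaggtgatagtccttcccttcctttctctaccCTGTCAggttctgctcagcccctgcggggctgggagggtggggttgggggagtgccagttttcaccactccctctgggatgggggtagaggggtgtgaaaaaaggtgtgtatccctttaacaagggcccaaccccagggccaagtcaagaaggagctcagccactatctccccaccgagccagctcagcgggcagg
TGACAG, the core recognized by MEIS homeodomains, was searched on both strands and was found in 1 of 10 member promoters, beginning 146 bases before the start of S100A16, against 14.3% of 19856 protein-coding promoters of the same length. TATAAA was found in 2 members, 31 bases before the start of S100A4 and 29 before that of S100A13, against 9.63% of all promoters. S100A3 and S100A4 had few CpG dinucleotides, 5 and 8 in 300 bases where the median promoter had 23, whereas S100A10 had 32. The 3 promoters thus had none of the searched words in common and differed in CpG content, and the absence of these letters from a window of 300 bases does not bear on binding elsewhere.

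The members fell into abundant and scarce genes when levels were compared per length of the main transcript. In ctrl-KO, S100A13 had a mean level of 104 CPM per kb, S100A16 had 31.1 and S100A11 had 16.9, and the ranges over libraries of these 3 did not overlap. S100A4 followed with 2.19 CPM per kb and a range of 1.92 to 2.35, above S100A6 with 1.04 and a range of 0.267 to 1.55. From S100A6 down to S100A1, S100A2, S100A10, S100A3 and S100A5, whose means were 0.572, 0.454, 0.342, 0.195 and 0.0365 CPM per kb, the ranges of neighbours in the order overlapped. S100A11, S100A13 and S100A16 together held between 95.4% and 98.2% of the reads of the group in every library. In MEIS1-OE the order below S100A4 changed, with S100A10 at 2.67 and S100A3 at 2.13 CPM per kb ahead of S100A6 at 1.54 and S100A1 at 1.02.

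**Figure D1:**
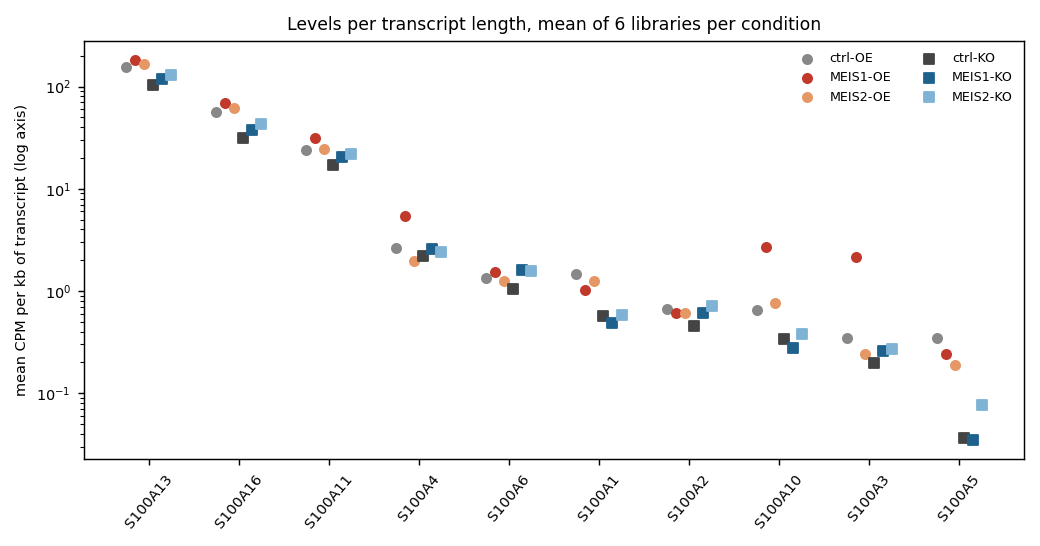
Mean level of each S100 gene per kb of its main transcript (CPM per kb, log axis) in the 6 conditions, ordered by the level in ctrl-KO, with circles for the activation system and squares for the knockout system. S100A13, S100A16 and S100A11 lie far above the others in every condition, and in MEIS1-OE S100A10 and S100A3 reach 2.67 and 2.13 CPM per kb from the bottom of the order.

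S100A3, S100A10 and S100A4 had the 3 largest fold changes of the group between MEIS1-OE and ctrl-OE, the comparison by which the group was chosen. In CPM they added little to the summed level of the group, whose median was 154 CPM in ctrl-OE and 198 CPM in MEIS1-OE and which came mostly from the abundant members. Some cell type markers also differed between these libraries. From ctrl-OE to MEIS1-OE, PDGFRB went from 83.2 ± 10.9 to 102.7 ± 7.23 CPM (SD, n = 6) and CD68 from 7.71 ± 1.17 to 10.2 ± 1.72. KRT18 went from 5.52 ± 0.682 to 3.96 ± 1.08 CPM, SLC1A3 from 9.05 ± 2.40 to 6.40 ± 1.06 and HES5 from 0.548 ± 0.599 to 0.0635 ± 0.0403. Other genes of the same lists went the opposite way. VIM went from 1992 ± 156 to 2276 ± 246 CPM, COL3A1 from 178 ± 32.1 to 162 ± 15.7 and GFAP from 0.210 ± 0.0997 to 0.330 ± 0.104. The neural stem sums were 2867 to 3710 and 3201 to 4098 CPM, the fibroblast sums 347 to 546 and 378 to 484. The astrocyte sums were 8.46 to 14.7 and 7.36 to 10.6 CPM. The libraries overlapped in each of the named markers and sums, and their part in the changes of the S100 genes was not tested. S100A3, best known as a zinc- and calcium-binding protein of the hair cuticle, had 0.0808, 0.250 and 0.469 CPM as lowest, median and highest value in ctrl-OE (2 to 10 reads) and 1.06, 1.47 and 2.39 CPM in MEIS1-OE (21 to 53 reads). The groups did not overlap, and the log2(fold change) was 2.63 with a standard error of 0.29, a 6.18-fold difference. Outside the activation of MEIS1 the gene was close to the limit of detection, with between 0 and 9 reads in the libraries of the 4 remaining conditions.

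S100A4, a partner of non-muscle myosin linked to cell motility and metastasis, had 1.08, 1.35 and 1.65 CPM in ctrl-OE (26 to 37 reads) and 1.79, 2.92 and 3.32 CPM in MEIS1-OE (36 to 73 reads). Again all 6 MEIS1-OE libraries lay above all 6 ctrl-OE libraries, with a log2(fold change) of 1.05 and a standard error of 0.14. As a share of the pair, S100A3 took a median of 14.6% of the reads of the pair in ctrl-OE (5.41% to 27.8%) and of 34.6% in MEIS1-OE (25% to 48.2%), and medians of 10.2% to 14.1% in the other conditions. The highest ctrl-OE share lay within the MEIS1-OE range, and the control shares rest on 2 to 10 reads of S100A3 per library.

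S100A10, also called p11, has lost the ability to bind calcium and joins annexin A2 (ANXA2) in a complex that carries membrane proteins to the cell surface. It had 0.279, 0.366 and 0.655 CPM in ctrl-OE (6 to 16 reads) and 1.34, 1.82 and 2.27 CPM in MEIS1-OE (27 to 50 reads). No MEIS1-OE library overlapped with ctrl-OE, and the log2(fold change) was 2.01 with a standard error of 0.24. ANXA2 itself measured 15.6 ± 2.14 CPM in ctrl-OE and 16.1 ± 1.87 in MEIS1-OE (SD, n = 6).

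**Figure D2:**
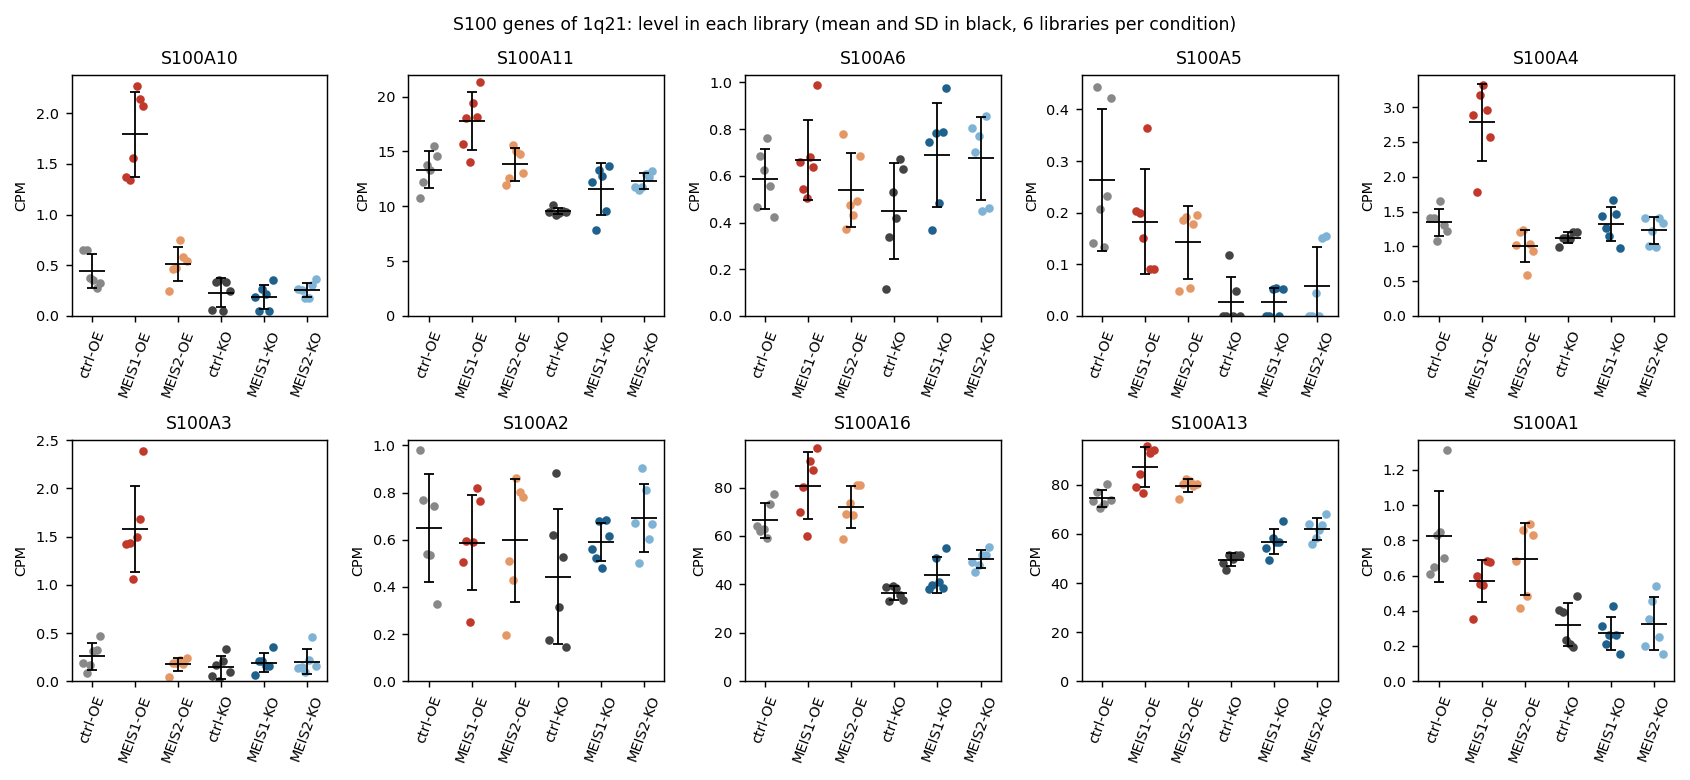
Level of each S100 gene (CPM, linear axis from 0) in every library of the 6 conditions, in the order of the genes on the chromosome, with mean and SD in black. In S100A3, S100A4 and S100A10 the 6 MEIS1-OE libraries stand above all ctrl-OE libraries, and in S100A11, S100A13 and S100A16 the 6 MEIS2-KO libraries stand above all ctrl-KO libraries.

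The remaining 7 members differed less between MEIS1-OE and ctrl-OE. The abundant genes were slightly higher in MEIS1-OE, with log2(fold change) 0.42 for S100A11, 0.28 for S100A16 and 0.23 for S100A13, and 5, 4 and 4 of 6 libraries above every control. S100A1, known from heart and skeletal muscle, went the other way with -0.52 and a standard error of 0.23, 0.608 to 1.31 CPM in ctrl-OE and 0.355 to 0.682 in MEIS1-OE, and 4 of 6 libraries below every control. S100A5 (-0.52), S100A2 (-0.13) and S100A6 (0.19) had standard errors of 0.44, 0.29 and 0.24 and overlapping libraries. Over the group, 3 of 10 members exceeded 0.58, the cutoff of the study, where 7.36% of 19689 tested genes did so, and 3 had no overlap upwards, where 3.17% of genes did. The median log2(fold change) of the members was 0.26 beside -0.001 for all tested genes, and since the comparison chose the group nothing is read from these shares.

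Along the chromosome, the 20 other tested genes with at least 1 CPM between positions 151500000 and 154100000 had log2(fold changes) from -0.15 to 1.23 in MEIS1-OE, with a median of 0.023. RAB13, a small GTPase of vesicle traffic whose start is 437.1 kb from that of S100A3, was the single one of these 20 above 0.58 (1.23, standard error 0.05), and it was picked out after its value was seen. Of 6 tested neighbours below 1 CPM, where S100A3 and S100A10 also lie, TCHH (2.15, standard error 0.74) and LCE1E (1.84, standard error 1.23) had values above 0.58 on averages of 0.0409 and 0.0175 CPM. Of 22 listed neighbours that are no S100 gene, 12 could be tested, most of them widely expressed genes such as ILF2, INTS3 and SNAPIN, while the 10 that could not be tested, among them FLG and LOR of the skin barrier, had 0 or 1 read in all libraries together. In the tested comparisons, 1 of the 12 neighbours was lower in MEIS2-OE and none higher, where 1.35% of all genes passed. Between the controls 5 were higher and 1 lower in ctrl-OE, where 51.4% passed. In the knockouts 0 of 12 passed by edgeR, where 1.46% of all genes passed in MEIS1-KO and 10.0% in MEIS2-KO. At an unadjusted P below 0.05 there were 2 in MEIS1-KO, where 11.6% of genes lay, and 1 in MEIS2-KO, where 23.2% lay. NPR1, the receptor of atrial natriuretic peptide, had 2.89 ± 0.252 CPM in ctrl-OE, 1.92 ± 0.227 in MEIS2-OE (log2(fold change) -0.58, adjusted P = 0.00470) and 0.345 ± 0.0620 in ctrl-KO. Among the neighbours that passed it also had the largest value between the controls (3.04, adjusted P = 1.1e-17), ahead of THEM4 (0.50) and ILF2 (-0.38).

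**Figure D3:**
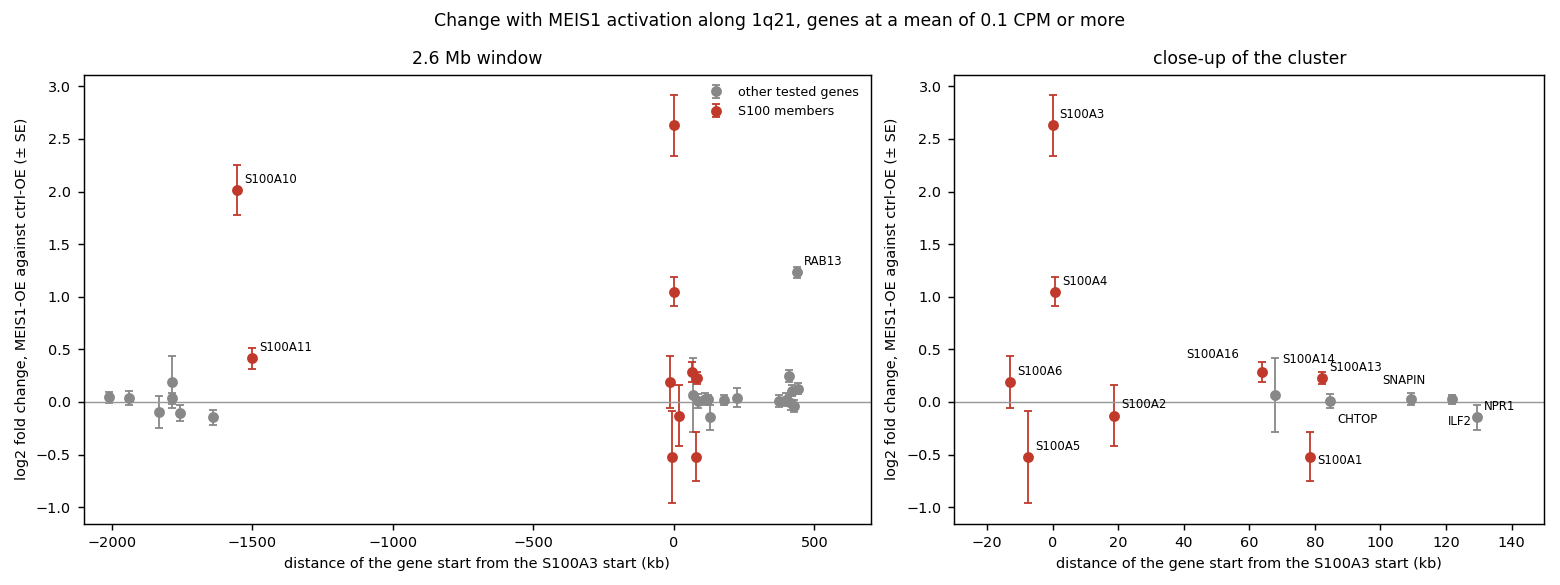
Difference between MEIS1-OE and ctrl-OE (log2 fold change, SE as bars) against the distance of each gene start (the outermost annotated one) from that of S100A3, for genes with a mean of at least 0.1 CPM, over a window of the chromosome and close to the cluster. S100A3 (2.63), S100A10 (2.01), RAB13 (1.23) and S100A4 (1.05) stand apart, and the other genes lie between -0.52 and 0.42.

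MEIS2-OE was the first comparison that the choice of the group did not use, and it shares the ctrl-OE libraries with MEIS1-OE. No member passed the test (edgeR, adjusted P below 0.05, 0 of 10, where 1.35% of all genes passed). At an unadjusted P below 0.05 there was 1 of 10 where 7.64% of genes lay, and DESeq2 called 0. S100A4 was that gene, with 0.592, 1.03 and 1.24 CPM in MEIS2-OE against 1.08, 1.35 and 1.65 in ctrl-OE, and 4 of 6 libraries lay below every control. Its log2(fold change) was -0.41 with a standard error of 0.16, and the edgeR P was 0.0157 before and 0.425 after adjustment. Without replicate 4, whose MEIS2-OE library had 11 reads, the value was -0.24. The libraries of both conditions overlapped.

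S100A3 had 0.0487, 0.188 and 0.244 CPM in MEIS2-OE, which is 1 to 5 reads, and a log2(fold change) of -0.50 with an interval (95%) of -1.36 to 0.37. S100A10 had 0.243, 0.507 and 0.753 CPM and a log2(fold change) of 0.19 with an interval of -0.39 to 0.78. These values rest on 1 to 14 reads per library. The median over the group was -0.13, beside -0.009 for all tested genes.

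The knockouts share the ctrl-KO libraries, and the members that passed here were the 3 abundant ones. In MEIS2-KO, 3 of 10 members rose (4.04% of all genes rose and 10.0% passed in either direction) and none fell, and the 3 were S100A11, S100A13 and S100A16. DESeq2 called 3 as well, and 4 of 10 had an unadjusted P below 0.05 where 23.2% of genes did. None of the 3 reached the cutoff of 0.58. All 10 members had a positive log2(fold change), with a median of 0.39 beside -0.011 for all tested genes, although S100A1 (0.07) turned negative without replicate 3 or 4 and S100A10 (0.13) without replicate 1. Among the scarce members S100A5 (0.99, standard error 0.90, with 2.04 without replicate 3 and 0.26 without replicate 6), S100A2 (0.67, standard error 0.32, adjusted P = 0.198) and S100A6 (0.53, standard error 0.27, adjusted P = 0.229) had larger values with wider errors and did not pass.

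Cell type markers moved in the same libraries. Of 7 neural stem markers 1 rose and 3 fell, and their summed level was 4192 to 4715 CPM in ctrl-KO and 4764 to 5852 in MEIS2-KO. VIM, an intermediate filament protein, went from 2444 ± 105 to 3065 ± 257 CPM and PAX6, a transcription factor of neural progenitors, from 37.2 ± 1.42 to 26.1 ± 3.20 CPM (SD, n = 6), both without overlap, while SOX2 measured 300.3 ± 13.7 and 244 ± 18.2 CPM (adjusted P = 0.0585). Of 7 fibroblast markers 2 rose and 0 fell, with sums of 713 to 927 and 790 to 1027 CPM, led by the collagen gene COL1A1 at 36.3 ± 7.82 and 75.9 ± 17.8 CPM. Of 5 astrocyte markers 1 fell (SLC1A3), with sums of 28.1 to 32.6 and 21.9 to 26.3 CPM, and of 4 immune markers 1 rose (CD68), with sums of 2.89 to 3.26 and 3.30 to 4.88 CPM. Of 4 tested epithelial markers 1 rose (KRT18), with sums of 1.05 to 1.97 and 1.90 to 2.21 CPM, and of 5 tested neuron markers 1 rose (SYN1) and 1 fell (DCX), with sums of 192 to 299 and 269 to 342 CPM. No oligodendrocyte or pluripotency marker passed. PTPRC, CDH1 and KRT5 stayed at 3 reads or fewer in every library. The part of these markers in the rise of S100 genes and of their binding partners was not tested.

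S100A13, which takes part in the release of FGF1 from cells, had 45.1, 50.5 and 51.5 CPM in ctrl-KO and 55.9, 62.5 and 68.2 CPM in MEIS2-KO. All MEIS2-KO libraries were above all controls, and the log2(fold change) was 0.32 with a standard error of 0.058 (adjusted P = 0.000326). S100A16, a widely expressed member, had 33.2, 37.0 and 39.4 CPM in ctrl-KO and 45.0, 50.7 and 55.5 CPM in MEIS2-KO, again without overlap, and its log2(fold change) of 0.46 with a standard error of 0.10 (adjusted P = 0.00201) was the largest of the 3 that passed. S100A11, a partner of annexin A1 (ANXA1), had 9.24, 9.48 and 10.1 CPM in ctrl-KO and 11.5, 12.2 and 13.2 CPM in MEIS2-KO. Its groups did not overlap either, and the log2(fold change) was 0.37 with a standard error of 0.11 (adjusted P = 0.0231). Leaving out replicate 4, 5 or 6 of every condition ended the call of S100A11, with adjusted P values of 0.0889, 0.0789 and 0.0609 at log2(fold changes) of 0.35, 0.36 and 0.34. Non-overlap in this direction was found for 2.39% of all genes.

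MEIS1-KO gave the same members the same sign with smaller values. No member passed (edgeR, 0 of 10, where 1.46% of genes passed), 4 of 10 had an unadjusted P below 0.05 where 11.6% of genes did, and DESeq2 called 1, S100A13. With the replicate number as a block, a pairing the labels do not state, edgeR called S100A13 as well (adjusted P = 0.0306). S100A13 had 49.5, 56.7 and 65.1 CPM in MEIS1-KO, with 5 of 6 libraries above every control and a log2(fold change) of 0.20 with a standard error of 0.058 (adjusted P = 0.0780). S100A16 had 38.2, 40.3 and 55.1 CPM (0.27, standard error 0.10, adjusted P = 0.220) and S100A11 had 7.81, 12.5 and 13.7 CPM (0.28, standard error 0.11, adjusted P = 0.253). In S100A11, 4 libraries lay above every control and 1 below, so the spread within MEIS1-KO was as wide as the difference. S100A6, known as calcyclin, was the fourth gene, with a log2(fold change) of 0.58 and a standard error of 0.27 at 7 to 19 reads per library (adjusted P = 0.394).

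The scarce members that stood out in MEIS1-OE did not pass in either knockout. S100A3 had 0.133 CPM as median in ctrl-KO, 0.185 in MEIS1-KO and 0.153 in MEIS2-KO, with intervals of the log2(fold change) from -0.63 to 1.38 and from -0.58 to 1.40. At 0 to 9 reads per library a fall of S100A3 could hardly have been measured. S100A4 was better covered, with 17 to 31 reads per library, medians of 1.12, 1.34 and 1.28 CPM in ctrl-KO, MEIS1-KO and MEIS2-KO, and intervals from -0.10 to 0.56 and from -0.22 to 0.45. A fall of S100A4 by more than 0.22 on the log2 scale therefore lies outside both intervals. S100A10 measured 0.289, 0.200 and 0.260 CPM as medians of these conditions, with intervals from -1.16 to 0.60 and from -0.68 to 0.95.

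Between the knockouts themselves no member differed (edgeR, 0 of 10, where 0.0152% of genes passed). S100A13 was the only one with an unadjusted P below 0.05, where 5.68% of genes lay, with MEIS1-KO lower than MEIS2-KO (-0.12 on the log2 scale, standard error 0.058, adjusted P = 0.855), and DESeq2 called 0. A passed test in MEIS2-KO beside a missed one in MEIS1-KO was thus not a measured difference between the knockouts.

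**Figure D4:**
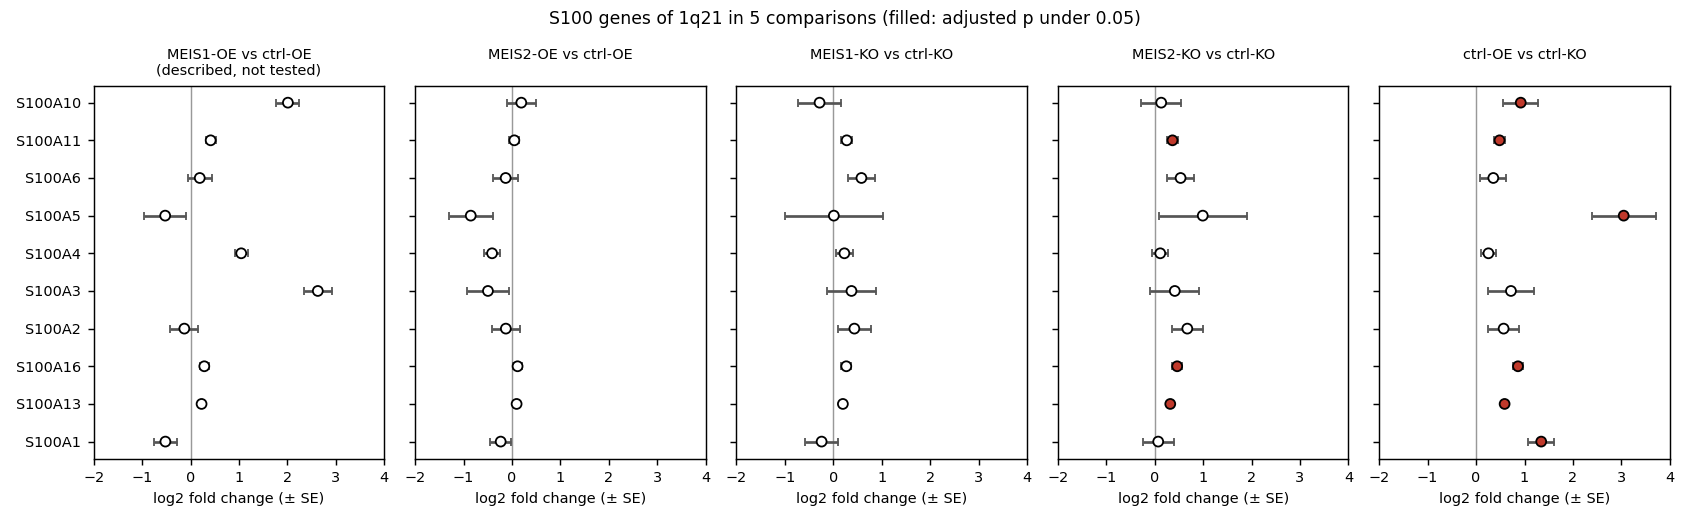
Log2 fold change (SE as bars) of the 10 S100 genes in 5 comparisons, filled where the adjusted P of the edgeR test was below 0.05, with MEIS1-OE against ctrl-OE shown as a description only. S100A3 (2.63), S100A10 (2.01) and S100A4 (1.05) stand out in MEIS1-OE, all 10 values are above 0 in MEIS2-KO with 3 of them filled, and 6 are filled between the controls.

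The study measured regulation by MEIS2 as the effect of activation minus the effect of knockout. In this contrast no member passed (edgeR, 0 of 10, where 2.57% of genes passed, and 0 by DESeq2). At an unadjusted P below 0.05 there were 4 of 10, where 15.1% of genes lay: S100A4 (-0.53, standard error 0.23), S100A16 (-0.35, 0.14), S100A11 (-0.32, 0.15) and S100A13 (-0.22, 0.081), with adjusted P values of 0.271, 0.196, 0.298 and 0.141. All 4 were negative, and the median over the group was -0.44 beside 0.004 for all tested genes. S100A13 had an adjusted P of 0.0472 when only the groups of the contrast were fitted.

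More members passed between the controls than in any other tested comparison. Between ctrl-OE and ctrl-KO, 6 of 10 members were higher in ctrl-OE and none lower, in a comparison in which 27.5% of all genes were higher and 51.4% passed in either direction. DESeq2 called 6, and 5 of the 6 also exceeded 0.58, where 22.1% of genes passed with that cutoff. The summed level of the group had a median of 99.1 CPM in ctrl-KO and 154 CPM in ctrl-OE. The system and the non-targeting guides cannot be told apart from other differences between these groups, among them the summed fibroblast, epithelial, immune, astrocyte, oligodendrocyte and pluripotency lists given above, the neuron markers SYN1 (higher) and DCX (lower) and the neural stem markers, of which 6 of 7 were lower in ctrl-OE (sums of 2867 to 3710 against 4192 to 4715 CPM), whose part in the result was not tested.

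S100A16 had 59.0, 63.6 and 77.3 CPM in ctrl-OE against 33.2, 37.0 and 39.4 in ctrl-KO, a log2(fold change) of 0.86 with a standard error of 0.099 (adjusted P = 1.5e-09). S100A13 had 70.5, 73.6 and 80.2 against 45.1, 50.5 and 51.5 CPM (0.59, standard error 0.058, adjusted P = 3.3e-11), and S100A11 had 10.7, 13.6 and 15.5 against 9.24, 9.48 and 10.1 CPM (0.48, standard error 0.11, adjusted P = 0.000193). None of the 3 abundant genes overlapped between the controls. For S100A16 the MEIS2-KO libraries, which reached 55.5 CPM at most, lay between those of ctrl-KO and ctrl-OE without overlap.

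Among the scarce members, S100A1 had 0.608, 0.764 and 1.31 CPM in ctrl-OE and 0.192, 0.315 and 0.483 in ctrl-KO, without overlap, with a log2(fold change) of 1.34 and a standard error of 0.27 (adjusted P = 5.1e-05). S100A5, known from olfactory neurons, had 36 reads over the 6 ctrl-OE libraries and 3 over the 6 ctrl-KO libraries, 4 of which had none. Scaled to the TMM-adjusted library totals, that is a ratio of 9.99 with a counting interval (95%) of 3.16 to 50.7, which covers counting error only (adjusted P = 0.000179). The fitted log2(fold change) was 3.05, and it was 4.09 without replicate 3 and 1.54 with a prior count of 2. S100A10 had 0.0524, 0.289 and 0.353 CPM in ctrl-KO against 0.279, 0.366 and 0.655 in ctrl-OE, with 4 of 6 ctrl-OE libraries above every ctrl-KO library, a log2(fold change) of 0.92 and a standard error of 0.36 (adjusted P = 0.0311). This call was lost without replicate 1, 2 or 4 (adjusted P = 0.182, 0.0697 and 0.0823 at log2(fold changes) of 0.61, 0.90 and 0.78) and, barely, when only the controls were fitted (0.92, adjusted P = 0.0507). Non-overlap upwards was found for 5 members and for 15.8% of all genes.

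S100A2, known from epithelia, and S100A6 passed in none of the tested comparisons. S100A2 ranged from 0.145 to 0.982 CPM over the 36 libraries and S100A6 from 0.116 to 0.990 CPM, and the libraries of all 6 conditions overlapped in both genes. Without replicate 3, S100A2 was higher in ctrl-OE than in ctrl-KO (0.91, adjusted P = 0.0240), against 0.57 and an adjusted P of 0.138 with all libraries.

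Most of the other S100 genes in the table had few reads or none. Of 11 further family members, S100A7, S100A7A, S100A7L2, S100A8, S100A9, S100A12 and S100G had 0 reads in all 36 libraries, S100P had 15 reads in all and S100Z 50. S100A14, the only further S100 gene of 1q21 with reads (146 in all), was higher in ctrl-OE, at 0.282 ± 0.102 CPM against 0.0792 ± 0.0404 in ctrl-KO (log2(fold change) 1.74, standard error 0.48, adjusted P = 0.00236). S100B, on another chromosome, differed the opposite way, with 1.77 ± 0.147 CPM in ctrl-OE and 3.50 ± 0.437 in ctrl-KO (-0.98, standard error 0.12, adjusted P = 1.3e-08). These 2 were the only further family members that passed in a tested comparison.

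The binding partners of S100 proteins were taken from a list of 25 genes, of which 23 could be tested. In MEIS2-KO, 7 of 23 rose, where 4.04% of all genes did, and 0 fell, in the libraries in which COL1A1 and VIM were higher and PAX6 lower, with a median over the list of 0.003 beside -0.011 for all genes. The 7 were ANXA1, ANXA2, ANXA4, ANXA5, AHNAK, MYH9 and PLAT, that is 4 annexins (membrane-binding proteins that S100 dimers can bridge), the giant scaffold AHNAK held by the S100A10 and ANXA2 complex, the myosin heavy chain bound by S100A4, and the protease tPA. ANXA1 had 86.3 ± 7.79 CPM in ctrl-KO and 145 ± 16.8 in MEIS2-KO (log2(fold change) 0.75, standard error 0.12, adjusted P = 6.0e-05), AHNAK went from 98.3 ± 12.3 to 146 ± 17.9 CPM (0.57, standard error 0.091, adjusted P = 6.5e-05), and ANXA4 from 3.79 ± 0.531 to 5.46 ± 0.771 CPM (0.53, standard error 0.096, adjusted P = 0.000352). ANXA2, the partner of S100A10, rose by 0.48 (standard error 0.098, adjusted P = 0.00122) while S100A10 itself did not pass.

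In MEIS1-KO, 2 of 23 partners rose, where 1.03% of all genes did, and 0 fell, ANXA1 to 137 ± 20.0 CPM (0.67, standard error 0.12, adjusted P = 0.00105) and AHNAK to 143 ± 12.7 CPM (0.54, standard error 0.091, adjusted P = 0.000659). In the same libraries the markers COL1A1 (0.82, adjusted P = 0.0408) and VIM (0.25, adjusted P = 0.0400) rose and PAX6 (-0.42, adjusted P = 0.0178) fell, and their part in the result was not tested. In MEIS2-OE none passed (edgeR, 0 of 23, where 1.35% of all genes passed), and 3 had an unadjusted P below 0.05, where 7.64% of genes did. In the MEIS2 contrast 3 were lower, where 1.18% of all genes were, and none higher, ANXA4 (-0.59, standard error 0.13, adjusted P = 0.00541), ANXA1 (-0.59, standard error 0.17, adjusted P = 0.0451) and AHNAK (-0.48, standard error 0.13, adjusted P = 0.0321). The fibroblast marker COL1A1 was lower in the same contrast (-1.15, standard error 0.30, adjusted P = 0.0266), and its part was not tested. Between the controls 10 of 23 were higher and 5 lower in ctrl-OE, where 27.5% of all genes were higher and 23.9% lower, led by RYR1 (2.27) and AHNAK (1.06) beside MYH14, which had 18 reads in all and none in ctrl-KO. The list was not tested as a set.

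**Figure D5:**
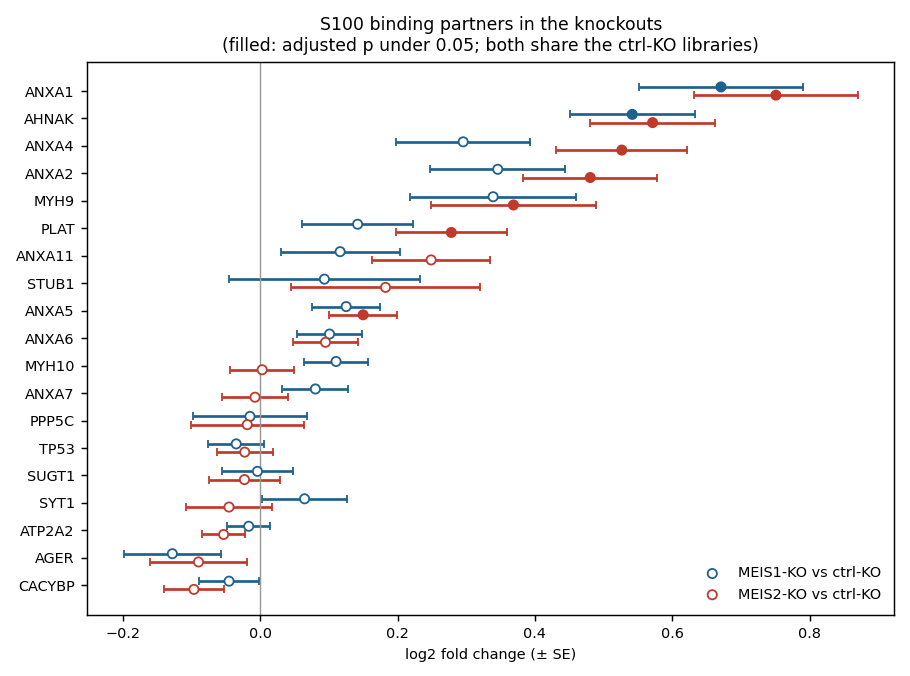
Log2 fold change (SE as bars) of the S100 binding partners with at least 1000 reads in all, in MEIS1-KO and MEIS2-KO against the ctrl-KO libraries that both share, filled where the adjusted P of the edgeR test was below 0.05. In MEIS2-KO 7 partners are filled, from ANXA5 at 0.15 to ANXA1 at 0.75, and in MEIS1-KO ANXA1 (0.67) and AHNAK (0.54).

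Among 23 tested genes of other EF-hand proteins, which bind calcium with the same fold, 2 rose in MEIS2-OE, where 1.07% of all genes rose, and 0 fell. They were the neuronal calcium buffers CALB2 (calretinin, 0.259 ± 0.0982 CPM in ctrl-OE and 2.37 ± 0.296 in MEIS2-OE, log2(fold change) 3.16, standard error 0.25, adjusted P = 3.0e-12) and CALB1 (calbindin, 35.5 ± 3.89 and 49.6 ± 3.68 CPM, 0.48, standard error 0.077, adjusted P = 7.3e-05). In MEIS2-KO 1 rose and 3 fell, where 4.04% of all genes rose and 5.98% fell: CAPNS1, the small calpain subunit, rose (0.19), and PVALB (-0.57), CALML4 (-0.39) and NCALD (-0.20) fell. CALML4 was also the 1 gene of the list that fell in MEIS1-KO, where 0.432% of all genes fell (-0.35, standard error 0.083, adjusted P = 0.0171). In both knockouts the markers COL1A1 and VIM rose and PAX6 fell, and their part in these changes was not tested. Of the listed EF-hand genes CALB2 and CALB1 also passed in the MEIS2 contrast (3.11 and 0.45), where 2.57% of all genes passed. Between the controls 7 were higher and 10 lower in ctrl-OE, where 27.5% of all genes were higher and 23.9% lower. They were led by HPCAL4 (8.26 ± 0.996 CPM in ctrl-OE and 1.46 ± 0.214 in ctrl-KO), CABP7 (2.11) and CALB2 (-1.38). Of the cell type markers, HES5 of the neural stem list was the 1 that passed in MEIS2-OE (-2.79, adjusted P = 0.0153), and its part in the changes of CALB2 and CALB1 was not tested.

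The genes whose pattern over the 6 conditions was most like that of S100A3 were sought among 13464 genes with a mean of at least 1 CPM, by the root mean square difference of the centred condition means of log2 CPM. They were SLC15A3 (0.21), RASL12 (0.31) and VTN (0.32). SLC15A3, a peptide and histidine transporter of lysosomes, had 5.60 ± 1.06 CPM in ctrl-OE, 26.4 ± 4.67 in MEIS1-OE and between 4.84 and 6.26 on average in the other conditions. For S100A4 they were ARHGEF37 (0.14), C1QTNF6 (0.14) and PPT2 (0.15), and C1QTNF6 had 50.8 ± 5.81 CPM in ctrl-OE and 107 ± 11.5 in MEIS1-OE. Likeness was a ranking over 6 means and carried no test. The MEIS1-OE rise that chose the group dominates both patterns, so genes high in MEIS1-OE rank first by construction. Outside MEIS1-OE the S100A3 means rest on 0 to 10 reads per library.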

How the data were processed

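The authors sequenced 6 libraries of hNSC for each of 6 conditions. Poly-A RNA gave stranded, paired-end libraries, which were aligned to hg19 with STAR (2.4.2a in the study's text, 2.7.0a beside Trimmomatic 0.39 in the submitters' processing notes) and counted on genes with HTSeq 0.6.0. The deposited values are the resulting raw counts per gene symbol, which the authors had not normalized. The annotation behind the symbols is not given in the sources used here. Columns were assigned to conditions and replicates by their labels, and 0 columns had no sample.

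Genes with at least 10 counts over all libraries (19689 of 28516) were tested with edgeR 4.0.16 (limma 3.58.1, R 4.3.3): TMM normalization, 1 quasi-likelihood fit of 6 groups, two-sided F tests, Benjamini-Hochberg adjustment over all tested genes, and a prior count of 0.125 for fold changes. A gene passed at an adjusted P below 0.05, and the study's cutoff of 0.58 was counted beside it. Standard errors were derived from the log2 fold change and the square root of F, and intervals are 1.96 standard errors. CPM used library totals multiplied by their TMM factors. The fit was tested on simulated data for MEIS2-KO against ctrl-KO (19517 genes): 100 of 100 genes changed 2-fold and 99 of 100 changed 1.5-fold were recovered, with 15 false calls. The changed genes were drawn only from well-covered genes, with more reads than the scarce members had, and all genes had the same simulated spread. The recovery therefore does not cover the scarce members. The biological coefficient of variation was 0.0915. Libraries of 1 condition differed by more than counting error in every pair (chi-square per degree of freedom 2.63 to 36.0).

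Positions, promoters and transcript lengths came from GENCODE models on GRCh37, pseudogenes from RefSeq. Named were the 10 members, MEIS1 and MEIS2, the passing genes of 4 lists (other S100 genes, neighbours, binding partners, other EF-hand genes) with the 3 largest changes, marker genes, and the 3 genes most like S100A3 and S100A4; others named were chosen after their values were seen. Members and lists were chosen with earlier results of these data known. Alternatives were RLE size factors, filterByExpr, no filter, a larger prior count (2), leaving each replicate number out, fitting the compared groups alone, the replicate number as a block, and DESeq2 1.42.0. Figures were drawn with matplotlib 3.10.9 in Python 3.11.15. The study's ChIP-seq and protein data were not used here.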

Additional observations from a re-analysis of the deposited data

Results flagged for a closer look

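Of 60 sets of 6 libraries (10 members in 6 conditions), 4 held a library whose gap to the nearest other as a share of the range exceeded Dixon's limit (95%). Chance gives about 1 in 20 sets, so 4 of 60 is near that share. S100A1 had 1.31 CPM in replicate 6 of ctrl-OE (28 reads), where the other libraries had 0.608 to 0.850 CPM. S100A6 had 0.990 CPM in replicate 6 of MEIS1-OE (22 reads), beside 0.503 to 0.681 CPM. S100A3 had 0.454 CPM in replicate 5 of MEIS2-KO (9 reads), beside 0.0905 to 0.225 CPM, and 0.0487 CPM in replicate 1 of MEIS2-OE (1 read), beside 0.179 to 0.244 CPM. None of these libraries decided a call of the gene it concerns.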

How the results depend on the processing

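Over 13 alternatives, 891 values of members stayed on their side of the threshold (or, for MEIS1-OE, within the spread of the libraries), 7 lost a call, 4 gained one and 0 reversed after a call. Of the 891, 23 changed sign, all of them values that had not passed or lay below 0.58, between -0.30 and 0.19 with all libraries, when 1 replicate number was left out, among them S100A2 and S100A6 in MEIS1-OE. In MEIS1-KO, 1 member passed instead of 0 with the replicate block (S100A13, 0.20, adjusted P = 0.0306) and 1 with DESeq2 (S100A13, adjusted P = 0.0488). The labels number the replicates but do not state a pairing. Libraries with the same number deviated together weakly (mean correlation 0.0993, 46 of 90 pairs above 0.1, against -0.0210 for other numbers). Of 36 libraries 14 correlated best with their own number, where chance among 6 numbers gives about 1 in 6. The block changed no other call. In the MEIS2 contrast, 1 member passed instead of 0 with only the groups compared (S100A13). Leaving out 1 replicate number, 2 to 3 members passed in MEIS2-KO, 5 to 7 between the controls, and 0 in the other tested comparisons, and 3 to 4 members were beyond 0.58 in either direction in MEIS1-OE. The calls of S100A11 in MEIS2-KO and of S100A10 and S100A2 between the controls changed as given above. S100A5 was removed by filterByExpr, which left 5 members passing between the controls. Scaling moved the median of all genes by less than 0.05 on the log2 scale. Depth limits S100A3, S100A5 and S100A10, which had at most 16 reads per library outside MEIS1-OE.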
